A study of Mus musculus with 4 samples.

Results

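The miR-101 family of mouse brain was described by its 3 miRNA names above trace level, mmu-miR-101a-3p, mmu-miR-101b-3p and mmu-miR-101a-5p, of 1029 miRNA names in the table. The 3 names were chosen by their measured values, as rows whose miRNA annotation equals one of them, with the difference of miR-101a-3p between ages already known. Their levels and the change of these levels with age are therefore a description without a test. They held 452 of 85704 sequences, of which 295 were named miR-101a-3p, 124 miR-101b-3p and 33 miR-101a-5p.

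The data were small RNAs bound to Argonaute proteins (R-sRNAs) of C57BL/6J (BL6) brain, pulled down with a GW182 peptide and sequenced after gel selection of 19 to 35 nt RNA. Cortex and hippocampus were combined, 2 libraries came from mice of 2 months and 2 from mice of 18 months, and neither group carried a transgene or received a treatment. The labels do not say whether the 2 libraries of an age came from separate mice, so the spread between them may be technical. Library depth ran from 9067007 to 11388999 reads, levels are reads per 1000000 (CPM), and 3 reads corresponded to 0.263 to 0.331 CPM.

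A miRNA hairpin yields a 5p and a 3p arm, and the arm loaded into Argonaute pairs with mRNAs mainly through its seed, the bases that follow the first one. miR-101 is loaded as its 3p arm in many vertebrate tissues, brain included, and mRNAs known as its targets include Ezh2, a histone methyltransferase, Mcl1, an inhibitor of apoptosis, Ptgs2, a prostaglandin synthase, and App, the amyloid precursor protein. A shift of the 5′ end by a single base gives the same arm another seed. In this study each sequence carries a 6mer seed (positions 2 to 7) and a 6mer seed viability, the viability of mouse cell lines transfected with an siRNA of that seed as a percentage of control, in which a low value marks a toxic seed.

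The reference sequences show how closely the 3p arms resemble each other and how their annotated starts differ. They are RefSeq's mature entries on GRCm38.p6, with bases 2 to 8 in capitals.
mmu-miR-101a-3p: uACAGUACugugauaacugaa
mmu-miR-101b-3p: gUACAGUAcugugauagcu
mmu-miR-101a-5p: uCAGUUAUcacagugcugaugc
mmu-miR-144-3p: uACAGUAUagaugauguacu
mmu-miR-101a-3p lies at chr4:101346957-101346977 on the minus strand and mmu-miR-101a-5p at chr4:101346993-101347014, both exonic in E130102H24Rik, a lincRNA gene. mmu-miR-101b-3p lies at chr19:29135338-29135356 on the plus strand, in an intron of the protein-coding gene Rcl1. From the G before the first U of miR-101a-3p onward, the hairpins share 22 of 23 bases, and the difference is A16G, counted from 1 at that U, with miR-101a first. RefSeq's miR-101b-3p opens at this G, one base upstream of the miR-101a-3p entry, and the entries therefore have different seeds although the hairpins are identical there. miR-144-3p, a miRNA of another hairpin, is shown because its bases 2 to 7 equal those of miR-101a-3p. In what follows, base 1 is the first U of miR-101a-3p in both hairpins.

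The reads that carry most of the family are shown because few of them are the reference entries. They are given in the order of their mean CPM within each miRNA, with the 6mer seed in capitals.
miR-101a-3p read 1: gUACAGUacugugauaacuga
miR-101a-3p read 2: uACAGUAcugugauaacuga
miR-101a-3p read 3: uACAGUAcugugauaacugaau
miR-101a-3p read 4: uACAGUAcugugauaacugaag
miR-101a-3p read 5: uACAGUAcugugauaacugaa
miR-101b-3p read 1: uACAGUAcugugauagcugaag
miR-101b-3p read 2: gUACAGUacugugauagcuga
miR-101b-3p read 3: uACAGUAcugugauagcuga
miR-101a-5p read 1: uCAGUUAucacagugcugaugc
miR-101a-5p read 2: uCAGUUAucacagugcugaug
The most abundant miR-101a-3p read began one base upstream of the reference entry, was 21 nt long and made up 25.6% of the miRNA. The reference sequence of miR-101a-3p was read 5, with 7.75%. The reference sequence of miR-101b-3p, 19 nt long, made up 0.66%, and the leading miR-101b-3p read, 22 nt long, made up 33.5%. Of these arms, miR-101a-5p alone was led by its reference sequence, with 44.0%.

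All 3 miRNAs were more abundant in the RISC of old than of young brain, in both libraries. miR-101a-3p was at 7451 and 8754 CPM at 2 months and at 11449 and 13848 CPM at 18 months. The ages did not overlap, and the lower 18-month library exceeded the higher 2-month library 1.31-fold. The means were 8102 ± 921 CPM and 12649 ± 1696 CPM (SD, n = 2 each), a limma log2 change of 0.64 (SE 0.22) on the log2(CPM + 1) scale. Among the 1029 names, miR-101a-3p ranked 34th and 29th at 2 months and 24th and 14th at 18 months.

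miR-101b-3p, from the other hairpin, was at 2085 and 2583 CPM at 2 months and at 3099 and 3413 CPM at 18 months, again without overlap. Its means, each of 2 libraries with SD, were 2334 ± 352 and 3256 ± 222 CPM. The log2 change was 0.49 (SE 0.22). The passenger arm miR-101a-5p was at 143 and 159 CPM at 2 months and at 195 and 241 CPM at 18 months, with a log2 change of 0.52 (SE 0.22). The plot of levels shows the same order of the arms in each library, miR-101a-3p, miR-101b-3p and miR-101a-5p, and these 3 levels were far apart relative to their spread.

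**Figure D1:**
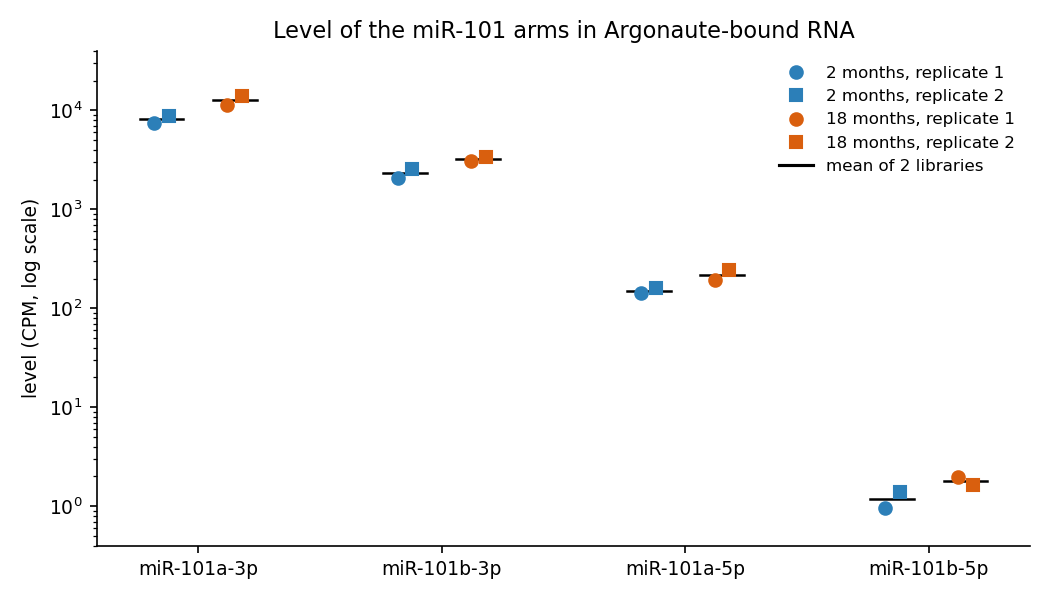
Level of the 4 miR-101 arms in CPM on a log axis, one symbol per library and a bar at the mean of 2 libraries. In CPM each arm lies higher at 18 months without overlap, miR-101a-3p at 11449 and 13848 against 7451 and 8754 CPM. The values of miR-101b-5p rest on 10 and 16 reads at 2 months and 21 and 15 reads at 18 months, which overlap.

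The direction of the family has to be read against the other miRNAs. Of 456 miRNAs that averaged 10 CPM or more, 55 were higher at 18 months without overlap of the ages (12.1%) and 189 were lower. The median log2 change over these miRNAs was -0.22, and all 3 miR-101 names were above it. Rescaling the libraries by the median of ratios moved that median to -0.01 and the log2 changes of miR-101a-3p, miR-101b-3p and miR-101a-5p to 0.85, 0.70 and 0.73. CPM gives the share of a library, so a change in the amount of RISC-bound RNA per cell and a change in the cells that hold it cannot be told apart in this bulk tissue.

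Levels of marker miRNAs of other cell types differed between the libraries as well. All listed markers were found and none was at 0. The neuronal markers miR-124-3p, miR-9-5p and miR-128-3p summed to 184377 and 195044 CPM at 2 months and to 195706 and 169186 CPM at 18 months, overlapping ranges. Of these, miR-124-3p was lower at 18 months without overlap, at 104115 and 107034 CPM and then at 98222 and 69405 CPM, and the other two overlapped. The 5 epithelial markers, among them miR-200b-3p, miR-429-3p and miR-141-3p, summed to 16526 and 25699 CPM at 2 months and to 37283 and 35447 CPM at 18 months. The endothelial markers miR-126a-3p and miR-126a-5p summed to 12243 and 11472 CPM at 2 months and to 5422 and 8990 CPM at 18 months. This lay in miR-126a-3p, at 9242 and 8854 CPM and then at 2557 and 6489 CPM, while miR-126a-5p stayed within 2501 to 3000 CPM with overlapping ages. The part of these differences in the levels of miR-101 was not tested. The sums of the oligodendrocyte, red blood cell, immune and choroid plexus markers overlapped between the ages, at 4119 to 6565, 1851 to 3574, 427 to 737 and 2116 to 2809 CPM over the 4 libraries.

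The other arm of the second hairpin was near the limit of detection. miR-101b-5p, which was not among the chosen names, was at 0.954 and 1.40 CPM at 2 months and at 1.99 and 1.66 CPM at 18 months, or 10 to 21 reads per library. Within the first hairpin, 19.2 and 18.2 reads of miR-101a-5p were found per 1000 reads of miR-101a-3p in young brain, and 17.0 and 17.4 in old brain. The difference between the age means was -1.47. miR-101b-3p amounted to 0.280 and 0.295 of miR-101a-3p in young and to 0.271 and 0.246 in old brain, a difference of -0.029. Both ratios were lower in the 18-month libraries without overlap. They divide by miR-101a-3p, whose age difference was known at the choice of the names, so both are a description without a test.

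Nearly all 3p reads opened at one of 2 adjacent bases, and these starts give seeds of different viability. Reads of miR-101a-3p that opened at base 1 had the seed ACAGUA, with a 6mer seed viability of 86.2%. Those that opened one base upstream had UACAGU, with a viability of 61.1%. The ACAGUA form of miR-101a-3p was at 4205 and 4688 CPM at 2 months and at 6791 and 8535 CPM at 18 months. The UACAGU form was at 3190 and 4012 CPM at 2 months and at 4564 and 5223 CPM at 18 months. Both forms were therefore higher at 18 months in both libraries, and the form with the more viable seed led in each library.

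In share, the UACAGU form took 42.8% and 45.8% of miR-101a-3p in young and 39.9% and 37.7% in old brain. These shares did not overlap, and they differed by -5.53 percentage points (exact permutation test, two-sided, p = 0.333, the smallest possible). For miR-101b-3p it took 32.7% and 30.4% at 2 months and 30.8% and 27.4% at 18 months. Its ages overlapped, with a difference of -2.44 points (exact permutation p = 0.667). The remaining 3p seeds were rare. The third, CAGUAC, with a viability of 45.2%, held 0.206% to 0.396% of miR-101a-3p. No read named miR-101b-3p carried it, which follows from the naming. A read of miR-101b that opens there matches at most 17 nt of its entry, too few for a name. Such reads without a name were at 24.1 to 34.7 CPM. The CAGUAC reads of miR-101a-3p open at base 2, from which RefSeq also lists mmu-miR-101c at chr9:3038680-3038698 with the same bases, and the copies cannot be told apart in them.

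The odds that a read lay outside the leading seed were tested across the 273 miRNAs that averaged 100 CPM or more. For miR-101a-3p these odds changed by -0.32 on the log2 scale (SE 0.13, unadjusted p = 0.061, adjusted p = 0.90, limma with Benjamini-Hochberg adjustment). For miR-101b-3p the change was -0.17 (SE 0.16) and for miR-101a-5p -0.29 (SE 0.26), each with a limma adjusted p of 0.90. None of the 3 had an unadjusted p under 0.05, against 11 of the 273 miRNAs (4.03%). A lower share without overlap, as in miR-101a-3p and miR-101a-5p, was found in 52 of the 273 (19.0%), and with limma no miRNA passed an adjusted p of 0.05. The passenger arm miR-101a-5p had its own pair of seeds, CAGUUA with a viability of 75.8% at 82.6% and 84.6% of its reads in young and 84.8% and 87.5% in old brain, and AGUUAU with a viability of 66.3%.

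The share of the upstream start separated the hairpins more clearly than the ages. It was higher in miR-101a-3p than in miR-101b-3p in 4 of 4 libraries, by 10.1 and 15.4 percentage points at 2 months and 9.08 and 10.3 points at 18 months. The mean difference was 11.2 ± 2.86 points (SD, n = 4). The sums of each seed within each name were known at the choice of the names, so this difference is a description without a test. The hairpins have the same bases around both starts, and the only difference within this arm lies at base 16. Outside it they also differ in the opposite arm, in the loop and in length, with 83 nt for miR-101a and 97 nt for miR-101b. The cause of the difference in start share was not tested.

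The seed composition sets the mean viability of each miRNA. Weighted by CPM, the mean 6mer seed viability of miR-101a-3p was 75.2% and 74.5% in young and 75.9% and 76.5% in old brain. This difference of 1.37 points had the smallest exact permutation p, 0.333. miR-101b-3p, with more of the base 1 start, was at 78.0% and 78.6% at 2 months and at 78.5% and 79.3% at 18 months, with overlapping ages. miR-101a-5p lay between 74.1% and 74.5% in all libraries. The mean over all sequences of a library was 57.7% and 57.9% at 2 months and 58.1% and 58.4% at 18 months. It was thus also higher at 18 months without overlap, and it lay below each of the 3 miRNAs in each library.

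**Figure D2:**
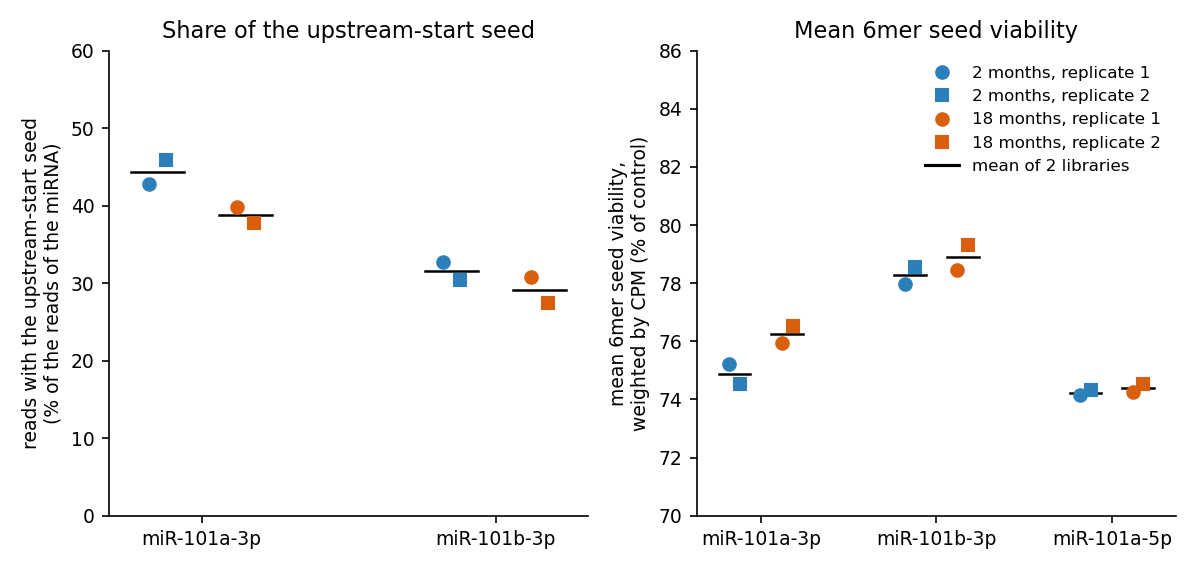
Left, share of reads with the upstream-start seed in percent of each 3p miRNA; right, mean 6mer seed viability in percent of control, weighted by CPM, on an axis that starts at 70. Symbols are libraries and bars are means of 2; the upstream-start share of miR-101a-3p lies at 42.8% and 45.8% at 2 months and at 39.9% and 37.7% at 18 months, above that of miR-101b-3p in each library.

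The 3′ ends differed between the start forms of the same arm. Comparisons of 3′ ends within libraries were not among the planned tests, and their p-values are descriptive. Of the miR-101a-3p reads that began one base upstream, 59.98% to 65.9% ended at base 20 without added bases, and 0.135% to 0.244% ended at base 22. Of the reads that began at base 1, 24.3% to 36.4% ended at base 20 and 13.5% to 24.7% at base 22. miR-101b-3p had the same pattern, with 0.219% to 0.343% of upstream-start reads and 40.1% to 59.7% of base 1 reads ending at base 22. Within a library the share ending at base 22 was higher for the base 1 start by 18.1 ± 4.74 points in miR-101a-3p and by 48.2 ± 8.14 points in miR-101b-3p (SD, n = 4, exact sign-flip test, p = 0.125 each, the smallest possible). The upstream start thus went with an earlier 3′ end in 4 of 4 libraries.

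Bases absent from the hairpin at the 3′ end also followed the start form. A run of U alone was added to 17.5% to 24.1% of the base 1 reads of miR-101a-3p and to 1.11% to 1.75% of its upstream-start reads. The leading tailed read was miR-101a-3p read 3, in which a U follows base 21. It was at 713 and 952 CPM at 2 months and at 1069 and 1898 CPM at 18 months. In miR-101b-3p the contrast was smaller, with U added to 11.3% to 14.96% of base 1 reads and to 7.12% to 9.41% of upstream-start reads. The difference between starts was 19.6 ± 2.78 points for miR-101a-3p and 4.47 ± 2.52 points for miR-101b-3p (SD, n = 4, exact sign-flip p = 0.125 each), with the base 1 start higher in 4 of 4 libraries.

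**Figure D3:**
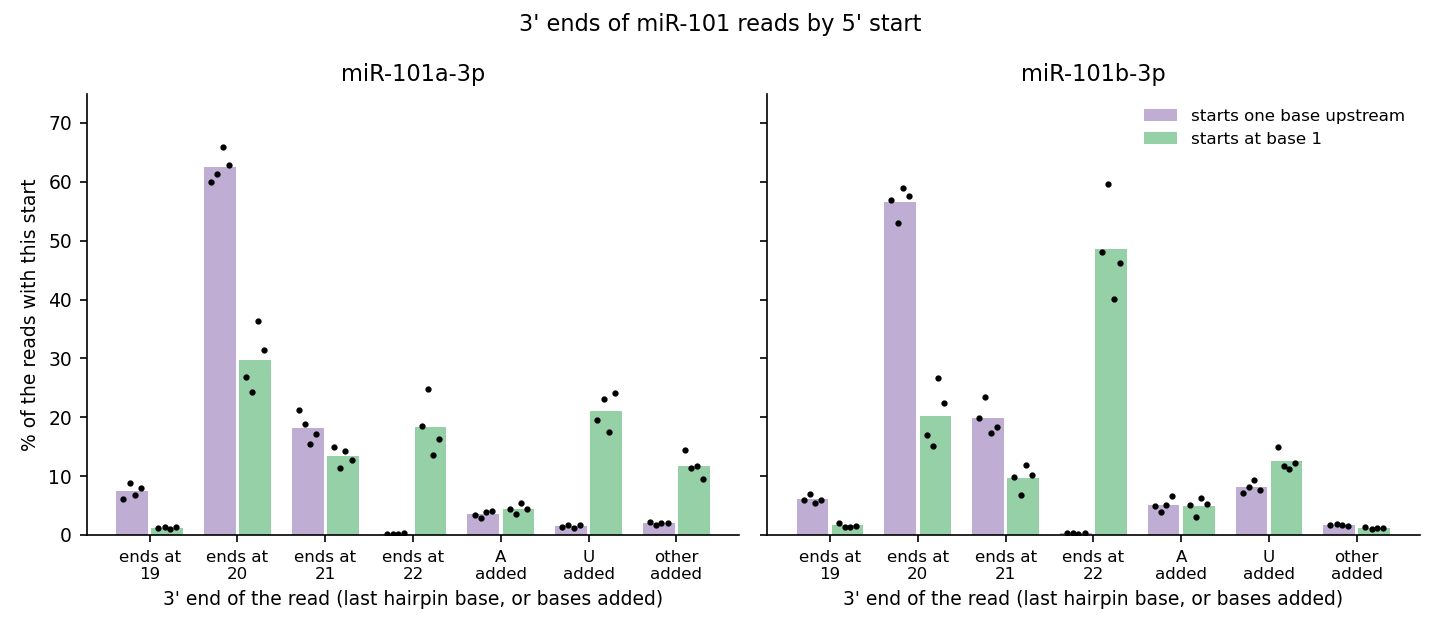
3′ ends of miR-101a-3p and miR-101b-3p reads, in percent of the reads with the same 5′ start; bars are means of 4 libraries and points are the libraries. Reads that start one base upstream end mostly at base 20 and almost never at base 22, where 0.135% to 0.343% of them end. Base 1 reads of miR-101b-3p end most often at base 22, and those of miR-101a-3p are spread over base 20, base 22 and added U.

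Between the hairpins, base 1 reads of miR-101b-3p ended at base 22 more often than those of miR-101a-3p, in 4 of 4 libraries and by 30.2 points on average (SD 3.45, exact sign-flip p = 0.125). A C in place of the hairpin's A after base 20 also set miR-101a-3p apart from miR-101b-3p, a form singled out after its values were seen. Its leading reads are shown because no annotated transcript holds them, with the bases from the C onward in capitals.
miR-101a-3p C form 1: uacaguacugugauaacugaCU
miR-101a-3p C form 2: uacaguacugugauaacugaCC
miR-101b-3p C form 1: uacaguacugugauagcugaCU
In young brain such reads made up 11.7% and 9.78% of base 1 reads of miR-101a-3p, in old brain 9.83% and 7.36%. In miR-101b-3p, whose hairpin has the same bases from 17 to 22, they made up 0.106% to 0.259%. The first form of miR-101a-3p was at 237 and 271 CPM at 2 months and at 344 and 339 CPM at 18 months, and that of miR-101b-3p at 0.473 to 2.10 CPM. The difference in share was 9.50 ± 1.75 points (SD, n = 4), and as the form was chosen for it, it is given without a test. Of 141767 GENCODE M21 transcripts, 3 held the 19 bases up to base 20 of miR-101a-3p and 0 held them followed by C, on either strand. The genome itself was not searched. RefSeq's mmu-miR-101c (chr9:3038680-3038698) has these same 19 bases, and the base that follows them there was not looked up. Whether the C forms come from that copy was not tested.

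The share of shorter reads was larger at 18 than at 2 months in all 3 miRNAs, without passing the test across miRNAs. The leading length over the 4 libraries together was 22 nt in all, although in replicate 1 of 18 months reads of 21 nt led in miR-101a-3p (35.9% against 33.5%). Reads shorter than this made up 57.0% and 55.6% of miR-101a-3p in young and 63.3% and 58.1% in old brain. For miR-101b-3p the values were 42.3% and 36.3%, then 49.4% and 44.3%. For miR-101a-5p they were 32.5% and 29.95%, then 39.3% in both 18-month libraries. None of these shares overlapped between the ages, which in this direction also held for 105 of 273 miRNAs (38.5%). The log2 odds changed by 0.26 (SE 0.18), 0.45 (SE 0.22) and 0.51 (SE 0.21), with limma adjusted p-values of 0.57, 0.44 and 0.38. Leaving out a library moved the change from 0.10 to 0.42 in miR-101a-3p and from 0.26 to 0.63 in miR-101b-3p.

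miR-101a-5p had an unadjusted limma p of 0.044 in this test. Over the 273 miRNAs, 35 had an unadjusted p under 0.05 (12.8%), of which 33 gained shorter reads, none passed after adjustment, and the median log2 change of the odds was 0.13. Among the 5 leading reads of each 3p arm, the one that runs from base 1 to base 20 had the largest ratio between the ages. In miR-101a-3p it was at 1123 and 1137 CPM at 2 months and at 2467 and 2680 CPM at 18 months. The 18-month mean was 2.28 times the 2-month mean. In miR-101b-3p it was at 238 and 270 CPM and then at 571 and 554 CPM, a ratio of 2.21. The CPM of base 1 reads that reach base 22 overlapped between the ages. In miR-101a-3p they were at 776 and 1157 CPM at 2 months and at 915 and 1391 CPM at 18 months, and in miR-101b-3p at 672 and 1070 CPM and then at 859 and 1143 CPM. As a share of base 1 reads they were lower at 18 months without overlap. This share was 18.5% and 24.7%, then 13.5% and 16.3% in miR-101a-3p. For miR-101b-3p it was 48.0% and 59.7%, then 40.1% and 46.2%. These shares were not tested or compared with other miRNAs.

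Reads that left the hairpin sequence anywhere made up 23.9% to 27.1% of miR-101a-3p and 15.4% to 19.1% of miR-101b-3p, and the ages overlapped in both. Their log2 odds changed by 0.07 (SE 0.12) and 0.09 (SE 0.17), with limma adjusted p-values of 0.90 and 0.92. In miR-101a-5p they made up 4.94% and 4.14% at 2 months and 6.02% and 7.69% at 18 months. For this arm the log2 odds change was 0.62 (SE 0.22), with an unadjusted limma p of 0.033 and an adjusted one of 0.38. Of the 227 miRNAs with a hairpin in the reference, 26 had an unadjusted p under 0.05 (11.5%) and 0 an adjusted p under 0.05 with limma.

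Counted by sequence, the higher level at 18 months was spread over many forms. Of 83 miR-101a-3p sequences that averaged 1 CPM or more, 53 were higher at 18 months with no overlap of the ages. The same held for 21 of 36 sequences of miR-101b-3p and 10 of 13 of miR-101a-5p. Over all 14286 sequences at that level it held for 20.5%. The sequences of a name share a precursor and were chosen with it, so these counts are no independent evidence.

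The seed ACAGUA reaches the RISC from other miRNAs too. All reads with this seed summed to 6547 and 8050 CPM at 2 months and to 9352 and 12213 CPM at 18 months, rank 29 and 25, then 23 and 20, of 3925 seeds. miR-101a-3p and miR-101b-3p together supplied 85.6% and 80.5% of the young and 95.5% and 90.1% of the old pool. The main other source was miR-144-3p, a miRNA of red blood cells, whose part was 13.2% and 18.3% in young and 3.41% and 8.79% in old brain. Of the UACAGU pool, which summed to 4301 and 5184 CPM and then to 5908 and 6712 CPM, both miR-101 names supplied 90.0% to 93.4%, and miR-582-5p followed with 2.25% to 4.46%.

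**Figure D4:**
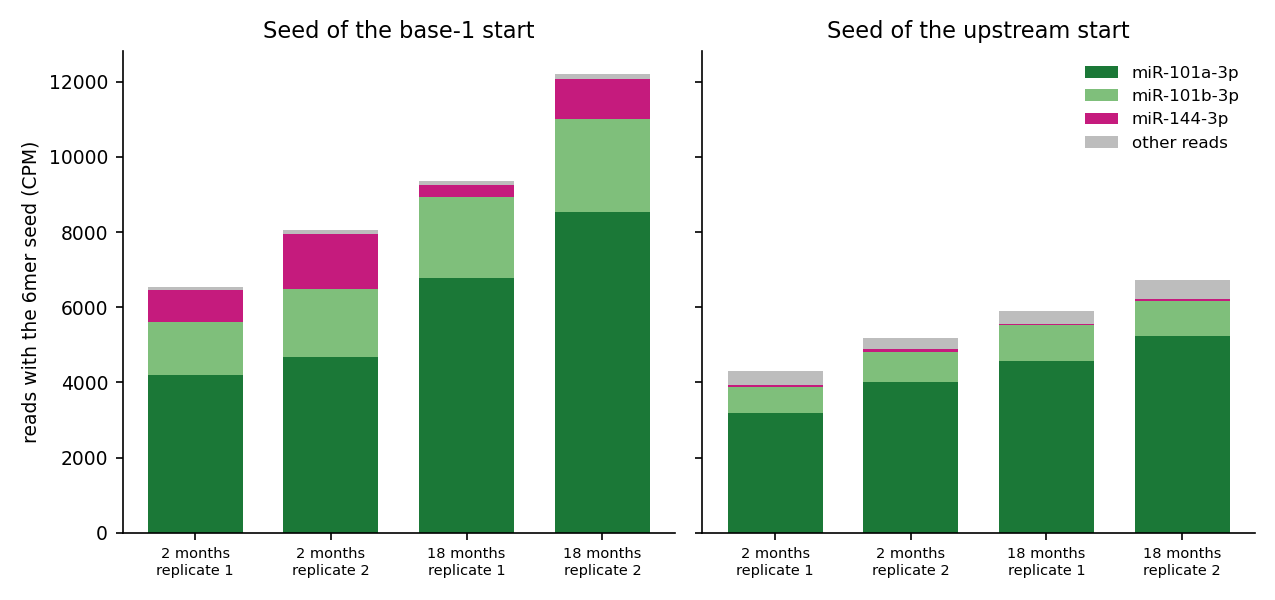
CPM of all reads with the seed of the base 1 start (left) and of the upstream start (right) in each library, stacked by source. The left pool is at 6547 and 8050 CPM at 2 months and at 9352 and 12213 CPM at 18 months, while the part of miR-144-3p is 864 and 1471, then 319 and 1073 CPM.

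Among the other miRNAs that averaged 10 CPM or more, only miR-144-3p was led by ACAGUA and only miR-582-5p by UACAGU. miR-144-3p, counted over all its reads, was at 919 and 1564 CPM at 2 months and at 354 and 1134 CPM at 18 months. The ages overlapped and the log2 change was -0.92 (SE 0.56, limma adjusted p = 0.44). This value rests on replicate 1 of 18 months, without which it was -0.08. That library also held the lowest miR-126a-3p, 2557 CPM against 6489 to 9242 CPM in the others. Among the other red blood cell markers, miR-144-5p was lowest there too, at 5.11 CPM against 7.44 to 8.71 CPM. miR-451a was at 1344 CPM there and at 878 to 1810 CPM in the others, and miR-486a-5p at 148 CPM against 134 to 197 CPM. miR-582-5p was at 352 and 281 CPM at 2 months and at 273 and 517 CPM at 18 months, with a log2 change of 0.25 (SE 0.34, limma adjusted p = 0.71). Neither had an unadjusted p under 0.05, against 74 of 456 miRNAs (16.2%), of which 19 were higher at 18 months. After rescaling by the median of ratios the count was 64, of which 39 were higher.

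The miRNAs whose profile over the 4 libraries was nearest to miR-101a-3p, among 270 others averaging 100 CPM or more, were miR-339-5p, miR-30e-5p and miR-344-3p. Their Euclidean distances in centred log2(CPM + 1) were 0.24, 0.30 and 0.30, against a median of 0.95. The nearest to miR-101b-3p were miR-30e-5p, miR-153-5p and miR-339-5p, at 0.20, 0.23 and 0.26, with a median of 0.82. miR-101a-5p lay closer to both, at 0.13 and 0.16, and the 3p arms lay 0.19 apart. miR-30e-5p, of the abundant miR-30 family, was at 6733 and 7654 CPM at 2 months and at 8198 and 10149 CPM at 18 months. With 4 libraries many miRNAs share such a profile by their age means alone, and the distances are a description.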

How the data were processed

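Argonaute-bound RNA was sequenced on an Illumina HiSeq instrument. Per the labels and the study's methods, the authors trimmed reads (Trim Galore is named, its version is not given in the sources used here), removed rare reads, matched sequences to mouse small RNA lists and deposited CPM, normalized to 1000000 reads. The deposited table also holds the 6mer seed viability, a score that can exceed 100. The labels give 250 mg of tissue. Reads recovered from the authors' CPM were whole counts for 100% of values (tolerance 0.02 read) and served as counts for the odds and count tests. A miRNA name went with an exact match of at least 18 nt to the mature entry, and reads with a match of at most 17 nt had none.

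CPM was summed by miRNA name. limma 3.58.1 in R 4.3.3 was fitted with an intensity trend on log2(CPM + 1) for 456 miRNAs averaging 10 CPM or more, and on log2 odds (0.5 read added) for miRNAs with at least 100 CPM, with Benjamini-Hochberg adjustment. edgeR 4.0.16 and DESeq2 1.42.0 on recovered reads, other pseudocounts, filters and scalings, a replicate block and leaving out each library were alternatives. Start shares and viabilities were tested between ages by exact permutation, differences of 3′ ends within libraries by exact sign flips, both two-sided, in Python 3.11.15. The sign-flip tests were not among the planned tests. The fits were tested on simulated data. Members and lists were chosen with earlier results of these data known. Named miRNAs were the members, other miR-101 names, miRNAs led by the same seed, the 3 nearest profiles, and the leading reads and seeds. The forms with C after base 20 were chosen after their values were seen. Sequences and coordinates are RefSeq's on GRCm38.p6, and gene context is from GENCODE M21.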

Additional observations from a re-analysis of the deposited data

Results flagged for a closer look

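Some reads of the miR-101 hairpins carried no miRNA name and so entered none of the comparisons. For the 3p arm of miR-101a they were 284 sequences at 86.6 CPM in the lowest library and 108.9, 151.9 and 180.9 CPM in the others, 1.15% to 1.31% of the arm. For the 3p arm of miR-101b they were 173 sequences at 57.7 CPM in the lowest library and 67.0 to 86.7 CPM in the others, 2.48% to 2.69% of the arm. Reads of miR-101b that open one base downstream of base 1 were among them, at 24.1 to 34.7 CPM, whereas the corresponding miR-101a reads were named, at 18.0 to 45.4 CPM. miR-101b-5p, which is outside the 3 names described, was found in every library, with 0.954 CPM in the lowest. There are no control libraries, and each of these levels lies above the 0.263 to 0.331 CPM that 3 reads amount to.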

How the results depend on the processing

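The age changes of the 3 levels kept their direction in all 39 alternative values. The scalings raised them: for miR-101a-3p, miR-101b-3p and miR-101a-5p, edgeR (TMM) gave 0.86, 0.70 and 0.75, DESeq2 0.85, 0.69 and 0.74, and the median of ratios 0.85, 0.70 and 0.73. Counts of miRNAs with an unadjusted limma p under 0.05 changed with the filter, which also sets how many miRNAs are tested. For levels they were 43 of 273 at 100 CPM or more, 74 of 456 at 10 CPM or more and 125 of 1029 without a filter. For the leading seed they were 20 at 10 CPM or more and 5 at 1000 CPM or more, and for shorter reads and reads leaving the hairpin 13 each at 1000 CPM or more, with fewer miRNAs tested at the higher minimum. Leaving out a library, they ran from 7 to 14 for the seed (7 without replicate 2 of 2 months), from 19 to 33 for shorter reads (19 without replicate 2 of either age) and from 15 to 30 for the hairpin (15 without replicate 2 of 2 months). Directions turned in 3 cases, none of them called: miR-582-5p ran from -0.21 (without replicate 2 of 18 months) to 0.71, and reads leaving the hairpin from -0.042 (without replicate 2 of 18 months) to 0.18 for miR-101a-3p and from -0.10 (without replicate 2 of 2 months) to 0.27 for miR-101b-3p. The cause was not tested. miR-144-3p ran from -1.76 to -0.08. The replicate numbers are not known to pair the libraries (same-numbered deviations correlated at 0.18 over 456 miRNAs). With the replicate block the level changes stayed at 0.64, 0.49 and 0.52 and no member's call changed, while the block gave 16, 26 and 28 miRNAs with a p under 0.05 for seed, shorter reads and hairpin and 79 for levels. The ratios, start shares and viabilities kept direction in all 56 alternative values, with the start share difference of miR-101b-3p running from -4.12 to -0.77 points and miR-101b-3p per miR-101a-3p from -0.041 to -0.017. Adding reads without a miRNA name, an alternative chosen after seeing the data, gave a start share difference of -5.52 points for miR-101a-3p and -2.42 for miR-101b-3p. With 2 libraries per age, the exact permutation test cannot reach 0.05.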
